A study of Mus musculus with 2 samples.

Results

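The 30 genes described here encode the enzymes that carry pyruvate into mitochondria, oxidise it to acetyl-CoA, turn the tricarboxylic acid (TCA) cycle and exchange cycle intermediates with glutamate and aspartate. They were chosen by function: every array probe whose accession belongs, in the RefSeq gene table, to a listed gene of pyruvate dehydrogenase, of the TCA cycle or of glutamate and aspartate metabolism was kept. This gave 45 probes for 30 genes, out of 25091 named probes for 17302 genes on the array. Of the 30 genes, 15 had 1 probe and 15 had 2.

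The RNA came from a mouse hybridoma line labelled 1H5F9. A hybridoma is an antibody-secreting line that descends from the fusion of a myeloma cell and a B cell, and such a line stands for 1 cell population only. Cells in serum-containing medium were given 0 µg/ml (untreated) or 5 µg/ml of BSP-II, a peptide from the bursa of Fabricius, for 4 h, and total RNA was hybridised to single-colour Agilent arrays. Although the stated design has 2 independent experiments, the arrays used here are 1 per dose, both of replicate 1. Hence no difference below has a replicate check and none was tested. Fewer cells with a transcript and less transcript per cell cannot be told apart in such bulk RNA.

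In mitochondria, the pyruvate carrier brings in pyruvate, and the pyruvate dehydrogenase complex converts it to acetyl-CoA under the control of inhibitory kinases and an activating phosphatase. Citrate synthase joins acetyl-CoA to oxaloacetate, and the cycle then returns oxaloacetate while giving off carbon dioxide and reduced electron carriers. Glutamine feeds the cycle through glutamate and 2-oxoglutarate, and cultured lymphoid cells use it as a major fuel beside glucose.

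Both arrays lay on 1 slide and held 45018 spots each, none of the gene spots saturated. Of 17302 named genes, 12852 (74.3%) had a probe well above background on both arrays, which is the scanner software's detection call, and these are called measured genes. All 12 markers of antibody-secreting B-lineage cells were detected on both arrays, with signals from 23.7 (Cd79a) to 150869 (Jchain) on the untreated array. Most markers of other cell types were dim: the brightest of the T cell, myeloid, erythroid and fibroblast lists was at 294 untreated, but the epithelial marker Epcam was at 4123. Of 6 listed markers each, 5 T cell, 4 myeloid, 4 erythroid, 4 fibroblast and 5 epithelial ones were detected on both arrays. Those detected included Cd3e, Csf1r, Col1a1 and Cdh1, and those not detected on both included Cd8a, Lyz2, Pdgfra and Krt19. Before scaling, the summed signals of T cell markers with a probe, detected or not, were 692 untreated and 629 with BSP-II. Myeloid ones were 189.6 and 248, erythroid ones 349.9 and 368, fibroblast ones 100.1 and 101, and epithelial ones 4760 and 5525. In the myeloid list, Csf1r was at 48.4 and 104 by its brighter probe, but at 73.5 and 50.2 by another. After scaling, median log2 differences of the detected markers were −0.29 (T cell), −0.08 (myeloid), −0.04 (erythroid), −0.21 (fibroblast) and 0.01 (epithelial). The B-lineage sum was 386469 untreated and 406474 with BSP-II before scaling between arrays. After scaling, the median log2 difference of these 12 markers was −0.16, and 10 of them lay below the median of all measured genes. Whether these marker signals bear on the differences below was not tested.

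Every one of the 45 probes was well above background on both arrays, while 71.2% of all named probes were. Signals are given as the scanner software's processed signal, after background subtraction and before scaling between arrays. The 75th percentile of the signal was 309 untreated and 356 with BSP-II, so an unscaled signal had to be higher by that ratio to give no difference after scaling. Differences are log2, BSP-II minus untreated, after each array was divided by its 75th percentile. For a gene with 2 probes the brighter is given first. Different probes bind with different strength, so signals are compared between arrays for the same probe and not between genes.

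**Figure D1:**
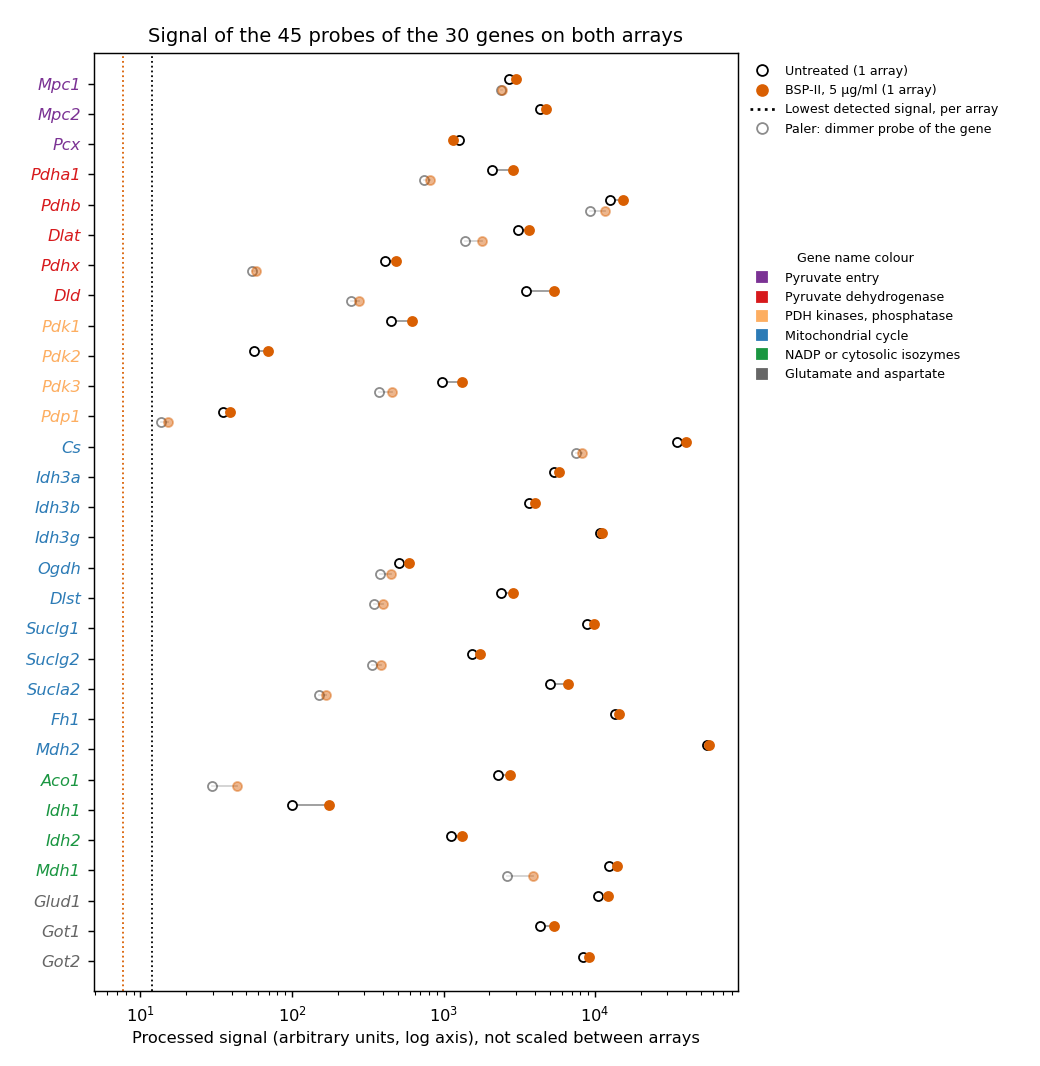
Processed signal (arbitrary units, log axis) of each of the 45 probes without (open circles) and with BSP-II (filled circles), with the dimmer probe of a gene drawn paler; dotted lines mark the lowest detected signal of each array, 11.8 untreated (black) and 7.66 with BSP-II (orange). All probes lie above these limits, and the distance between circles is small for most genes and widest for Idh1, at 100.3 and 175.

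As a group, the 30 genes were nearly level between the arrays. Their median log2 difference was 0.01, against −0.03 for all 12852 measured genes, and 17 of the 30 lay above that all-gene median. Only Idh1, the cytosolic NADP-dependent isocitrate dehydrogenase, was higher by 1.5-fold or more with BSP-II, where 1.21% of all measured genes were. No member was lower by that factor, where 4.83% of all measured genes were. No member differed 2-fold, which 0.202% of measured genes did upward and 1% downward. The middle of the group was narrow, with quartiles of −0.06 and 0.09, against −0.18 and 0.11 for all measured genes. Signal strength bears on that comparison. Of the 30 genes, 27 were at or above the median level of measured genes, and dim genes scatter more: the interquartile range was 0.19 over the brighter measured genes and 0.45 over the dimmer ones, and it was 0.14 for the 27 brighter members. Among those 27, none differed 1.5-fold, as 0.28% of all brighter genes did upward and 0.98% downward. Idh1 was among the dimmer genes, of which 138 of 6426 were at least 1.5-fold higher, against 18 of 6426 brighter ones. At a lower limit of 0.32 on the log2 scale, 1 of the 27 was higher (Dld; 2.55% of brighter genes) and 1 lower (Pcx; 4.09%), which left 25 (92.6%) within it, against 93.4% of all brighter genes.

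The scanner software's own spot error, carried to a log2 difference, was about 0.20 for nearly all of these probes, and repeat spots of 1 probe on these arrays had a median SD of 0.07 (158 probes with 5 or more spots). Both leave out the spread between cultures. The spot error was 0.204 at an untreated signal of 1126 (Idh2) and also at 54539 (Mdh2), so at bright probes it acted as a nearly fixed limit. It therefore says little on how uncertainty differs between genes. In 24 of the 30 genes the difference was smaller than its spot error. The 6 genes with a larger one were Idh1, Dld, Pdha1, Pdk1 and Pdk3, all higher on the BSP-II array, and Pcx, which was lower. The share of all measured genes past their own spot error, whose median was also 0.20, was not counted. These 6 are therefore not shown to stand out from the array. At the limit of 0.32, 2 of all 30 members were higher (Idh1 and Dld; 5.64% of all measured genes) and 1 was lower (Pcx; 14.4%).

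**Figure D2:**
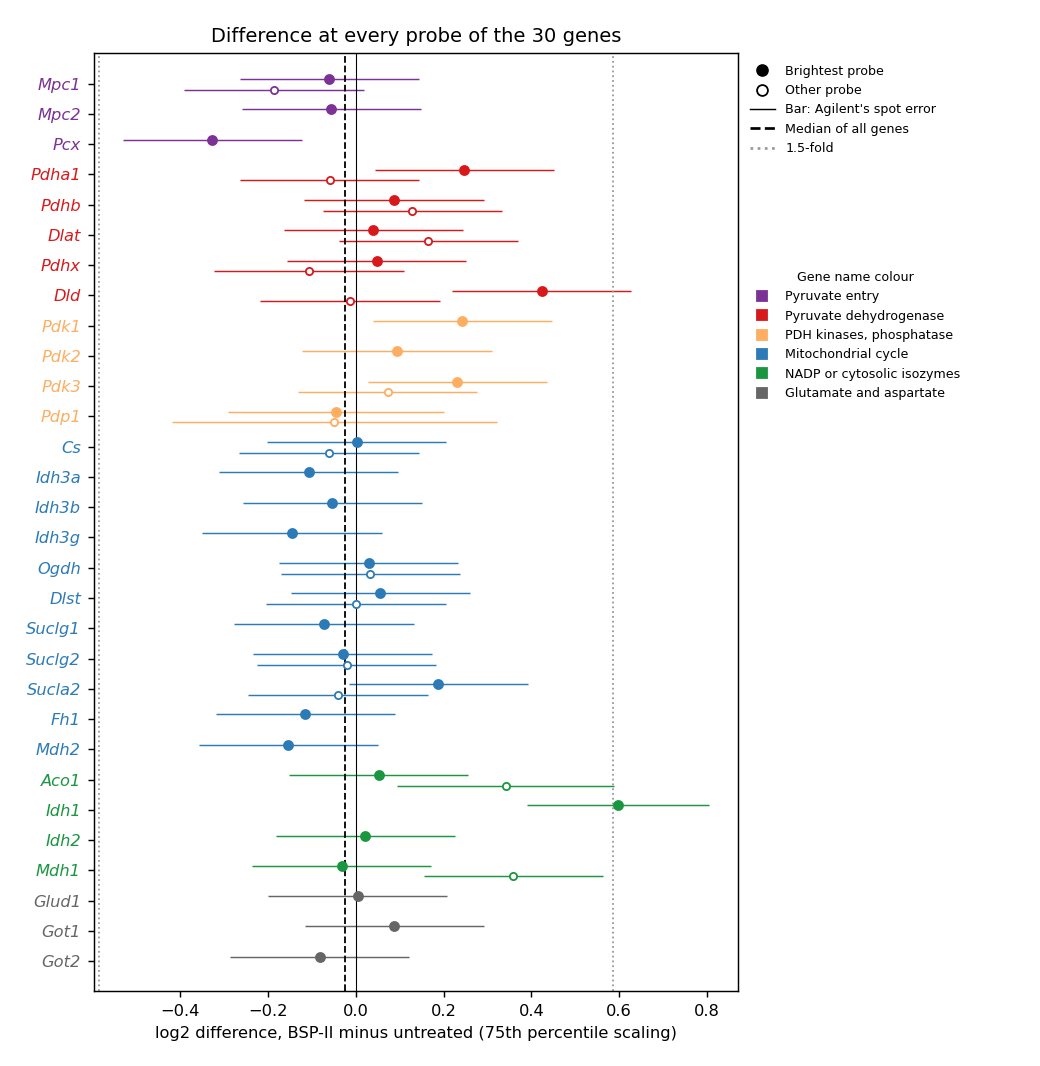
log2 difference (BSP-II minus untreated) at each probe of the 30 genes, filled for the brightest probe and open for the other, with bars for the scanner software's spot error and gene names coloured by role; the dashed line is the median of all measured genes and dotted lines mark 1.5-fold. Idh1 at 0.60 lies furthest to the right and Pcx at −0.33 furthest to the left, and the bars of most genes span 0.

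The sequence upstream of the genes at the ends of this range is shown to let their promoters be set side by side, together with that of Pdk1, a kinase gene known as a target of the hypoxia-inducible factor HIF. Each run holds the 250 bases before the most upstream start that RefSeq lists (GRCm38.p6, a later build than the mm9 grid of the arrays), written in the direction of the gene. Idh1 is at chr1:65186480-65186729 (minus strand), Dld at chr12:31351472-31351721 (minus), Pdk1 at chr2:71872974-71873223 (plus) and Pcx at chr19:4510222-4510471 (plus). Capitals mark the HIF core, ACGTG or GCGTG, and the E-box CACGTG, the site of Myc-family proteins, on either strand.
Idh1: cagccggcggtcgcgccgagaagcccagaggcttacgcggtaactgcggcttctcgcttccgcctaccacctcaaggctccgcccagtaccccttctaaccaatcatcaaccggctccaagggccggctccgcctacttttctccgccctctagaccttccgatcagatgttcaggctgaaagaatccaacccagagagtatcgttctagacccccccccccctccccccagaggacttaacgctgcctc
Dld: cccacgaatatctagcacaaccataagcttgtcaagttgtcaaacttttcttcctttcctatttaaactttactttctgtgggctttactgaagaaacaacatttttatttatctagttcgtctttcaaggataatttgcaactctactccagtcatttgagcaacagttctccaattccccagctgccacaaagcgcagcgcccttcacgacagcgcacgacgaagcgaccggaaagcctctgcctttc
Pdk1: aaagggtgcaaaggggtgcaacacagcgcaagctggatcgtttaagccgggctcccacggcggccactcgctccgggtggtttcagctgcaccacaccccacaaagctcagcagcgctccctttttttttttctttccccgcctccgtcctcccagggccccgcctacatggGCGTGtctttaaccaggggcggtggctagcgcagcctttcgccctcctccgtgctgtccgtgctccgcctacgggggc
Pcx: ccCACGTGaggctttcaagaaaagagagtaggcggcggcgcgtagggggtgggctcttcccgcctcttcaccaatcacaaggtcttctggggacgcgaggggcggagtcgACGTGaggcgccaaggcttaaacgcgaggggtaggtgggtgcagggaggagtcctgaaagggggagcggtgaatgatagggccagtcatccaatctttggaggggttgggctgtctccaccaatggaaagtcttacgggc
The Pcx window holds an E-box, which contains the HIF core on both strands, and a further HIF core; the Pdk1 window holds 1 HIF core, and the Idh1 and Dld windows hold neither motif.

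Promoter windows were listed for 28 of the 30 genes, all but Idh3a and Pdp1. The windows were rich in CG dinucleotides, with a median of 18 against 6 over 27025 genes, and in G and C (62% against 52%). A HIF core was found in 19 of 28 (67.9%) and in 38.6% of all windows, but in 62.4% of the 11731 windows with at least 8 CG dinucleotides, the lowest number among the 28. An E-box was found in Pcx and Pdk2 (7.14%, against 6.04% of all windows and 9.32% of those with at least 8 CG). The cyclic AMP response element TGACGTCA was found in Mdh2 and Ogdh (7.14%, against 1.60% of all and 3.03% of the CG-rich windows). The consensus motif of nuclear respiratory factor NRF1 was found in none of the 28 windows, against 1.02% of all and 2.31% of the CG-rich ones. A looser NRF1 pattern, searched first and replaced after its result was seen, had matched Sucla2 alone. The oestrogen-related receptor half-site AAGGTCA was found in Got1 alone (3.57%, against 4.04% of all and 2.12% of the CG-rich windows). All motifs were searched on both strands, and a match is a description of the letters only.

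Pyruvate entry was slightly low on the BSP-II array, mainly through Pcx. Pcx, pyruvate carboxylase, makes oxaloacetate from pyruvate and refills the cycle. Its signal was 1259 untreated and 1157 with BSP-II, which made it the 1 probe of 45 with a lower signal before scaling. After scaling the log2 difference was −0.33 ± 0.20 (spot error), at the 14.1 percentile of measured genes. Mpc1 and Mpc2, the subunits of the mitochondrial pyruvate carrier, were close to the all-gene median. Mpc1 was at 2721 and 3007 (−0.06), with −0.19 at its other probe, which was 1 of the clustered spots described with the probe pairs. Mpc2 was at 4304 and 4773 (−0.06). All 3 genes lay below the all-gene median, but without background subtraction Mpc1 and Mpc2 lay above it.

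All 5 genes of the pyruvate dehydrogenase complex lay above the all-gene median, by their brighter probes, with a median difference of 0.09. Dld, the lipoamide dehydrogenase that this complex shares with the 2-oxoglutarate dehydrogenase complex, differed most. Its signal was 3473 untreated and 5369 with BSP-II, a log2 difference of 0.42 ± 0.20 (1.34-fold), above 97.1% of measured genes. The other Dld probe gave 244 and 278, a difference of −0.01, so the probes of this gene disagreed by 0.44, the widest gap among the 15 genes with 2 probes. Pdha1, the alpha subunit of the decarboxylating component, was at 2099 and 2872 (0.25 ± 0.20), but at 738 and 816 by its other probe (−0.06). Pdhb, the beta subunit, was at 12517 and 15325 (0.09), and its other probe agreed, with 9281 and 11691 (0.13). Dlat, the acetyltransferase core, was at 3086 and 3657 (0.04) and by its other probe at 1386 and 1791 (0.17). Pdhx, which anchors Dld in the complex, was at 409 and 487 (0.05), with 54.4 and 58.2 (−0.11) by its dim second probe. In Pdha1 and Pdhx the other probe thus lay on the other side of the all-gene median. By gene, the complex kept 5 of 5 above that median in all 11 alternative settings, with its median 0.09 to 0.16 above it. Several of these settings left the 5 values unchanged or added nearly the same constant to every gene, so they were weak checks. Use of the dimmer probe alone is not among the 11.

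Of the kinases that switch the complex off, Pdk1, Pdk2 and Pdk3 were on the higher side and Pdk4 was on the lower. Pdk1 was at 453 untreated and 618 with BSP-II, a log2 difference of 0.24 ± 0.20, above 90.0% of measured genes. Pdk3 was at 977 and 1321 (0.23 ± 0.20), and its other probe at 374 and 453 (0.07). Pdk2 was dim, at 56.0 and 68.9, with a difference of 0.09, within its error of 0.22. All 3 lay above the all-gene median, and did so in each alternative in which they were measured. Pdk4, which belongs to the related genes and was named after its value was seen, was dim at 50.5 and 50.8, a difference of −0.20, at the 23.8 percentile of measured genes. Pdp1, the phosphatase that reactivates the complex, was near background at 34.9 and 39.0 (−0.04 ± 0.25), and its other probe, of another transcript accession, at 13.7 and 15.2 (−0.05 ± 0.37).

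The mitochondrial cycle itself was close to the all-gene median, with a side that turned with the processing. Of its 11 genes, 4 lay above that median, and their own median difference was −0.05. Without background subtraction 6 of the 11 lay above, and the group's median was 0.03 above that of all genes instead of 0.03 below it. None differed by 0.32 or more. Mdh2, mitochondrial malate dehydrogenase, was lowest, at 54539 and 56481 (−0.15). The catalytic and regulatory subunits of the NAD-dependent isocitrate dehydrogenase went the same way: Idh3g was at 10716 and 11167 (−0.15), Idh3a at 5369 and 5747 (−0.11) and Idh3b at 3634 and 4037 (−0.05). Fh1, fumarate hydratase, was at 13602 and 14476 (−0.12). Each of these 5 differences was smaller than the spot error of 0.20. Under the alternatives Mdh2, Idh3g, Idh3a and Fh1 kept their place below the all-gene median, and Idh3b did not.

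Citrate synthase, Cs, was at 34446 and 39773 (0.00), with −0.06 at its other probe, so that its place above the all-gene median was a matter of 0.03. Ogdh, the decarboxylase of the 2-oxoglutarate dehydrogenase complex, was at 506 and 595 (0.03 at each of its probes). Dlst, the succinyltransferase of that complex, was at 2397 and 2871 (0.06), with 0.00 at its other probe. Among the subunits of succinyl-CoA ligase, Suclg1 (alpha) was at 8899 and 9755 (−0.07) and Suclg2 (the GTP-specific beta subunit) at 1535 and 1734 (−0.03), with −0.02 at its other probe. Sucla2, the ATP-specific beta subunit, was the highest of the 11, at 5051 and 6632 (0.19), but at 150.1 and 168 (−0.04) by its other probe.

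**Figure D3:**
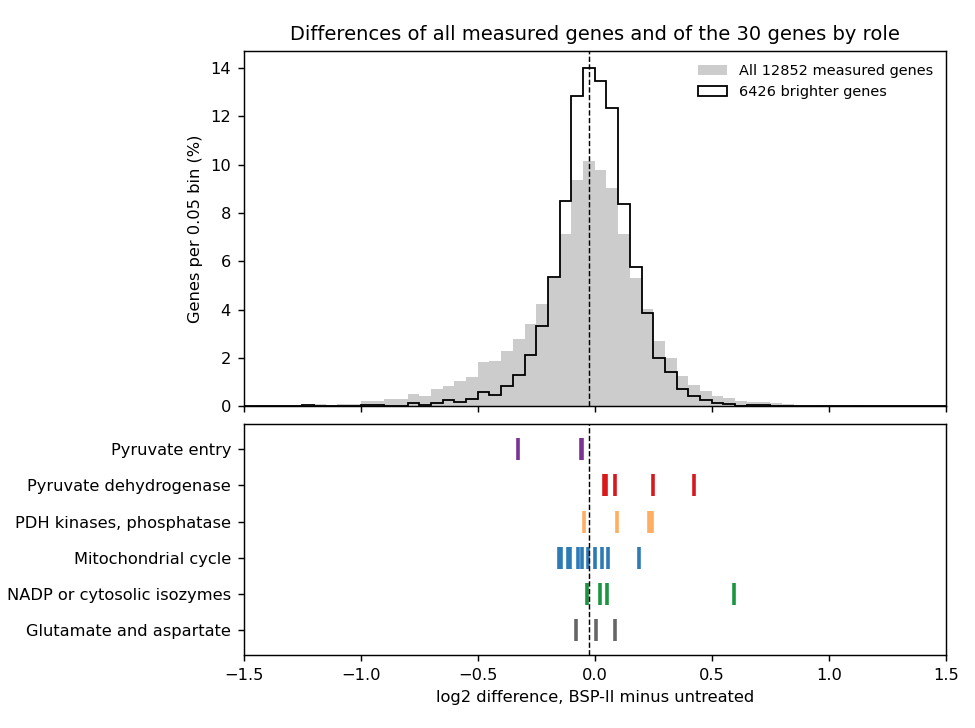
Top, share of genes (%) per 0.05 bin of log2 difference (BSP-II minus untreated) for the 12852 measured genes (grey) and the 6426 brighter ones (outline); bottom, the 30 genes by role, 1 tick per gene, with the all-gene median dashed. All 5 ticks of pyruvate dehydrogenase lie right of the dashed line, while 7 of the 11 ticks of the mitochondrial cycle lie left of it.

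Isozymes outside the NAD-dependent cycle included the largest difference of the group. Idh1, which makes NADPH and 2-oxoglutarate in the cytosol, had a signal of 100.3 untreated and 175 with BSP-II. The log2 difference was 0.60 ± 0.21 (1.51-fold), above 98.8% of measured genes. It is among the dimmer genes, has 1 probe, and stood barely past the 1.5-fold limit: normexp background correction gave 0.49 and the signal without background subtraction 0.44, while the authors' value table, a different scaling of the same signals, gave 0.72. Idh2, its mitochondrial counterpart, was at 1126 and 1318 (0.02). Mdh1, cytosolic malate dehydrogenase, was at 12306 and 13869 (−0.03), but at 2635 and 3893 (0.36 ± 0.20) by its other probe, a gap of 0.39. Aco1, the cytosolic aconitase that also acts as an iron-responsive RNA-binding protein, was at 2286 and 2733 (0.05), and at 29.7 and 43.4 (0.34 ± 0.25) by its dim other probe.

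For glutamate and aspartate, Glud1, the mitochondrial glutamate dehydrogenase, was level at 10520 and 12162 (0.00). Got1, the cytosolic aspartate aminotransferase, was at 4344 and 5321 (0.09). Got2, the mitochondrial one, was at 8324 and 9066 (−0.08). Each difference was smaller than the spot error of 0.20.

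When cytosolic and mitochondrial forms were paired, a grouping made after the values were seen, the cytosolic form had the higher difference in each of the 3 pairs given here. The gap was 0.58 for Idh1 over Idh2, 0.17 for Got1 over Got2 and 0.12 for Mdh1 over Mdh2. The Idh1 gap exceeded the combined spot error of its probes, which was 0.29, and the other gaps did not. The Mdh1 gap rests on the choice of probe: it was 0.32 with the median over probes and 0.51 without clustered spots, both larger than that error.

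Agreement between the probes of a gene was like that on the whole array. Over the 15 genes with 2 probes the median gap was 0.13, as it was over 4029 measured genes with at least 2 measured probes. The probes lay on the same side of the all-gene median in 9 of 15 (60%), and in 64.9% of the 4029. Gaps above 0.2 were found in 5 of the 15 (Dld, Mdh1, Pdha1, Aco1 and Sucla2) and in 1379 of the 4029. Some spots lay among others that differed strongly: a clustered spot here is 1 with at least 2 others within 3 rows and columns that were 2-fold different in a shared direction. Of the 45 probes, 5 (11.1%) were clustered, the main ones of Sucla2, Mdh1 and Got2 and the other ones of Mpc1 and Pdha1. Of the 30 main probes 10% were, against 8.05% of those of all measured genes. Without clustered spots Sucla2 was at −0.04 and Mdh1 at 0.36, from their other probes, and Got2 had no value. Idh1, Dld, Pdk1, Pdk3 and Pcx were not at clustered spots.

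**Figure D4:**
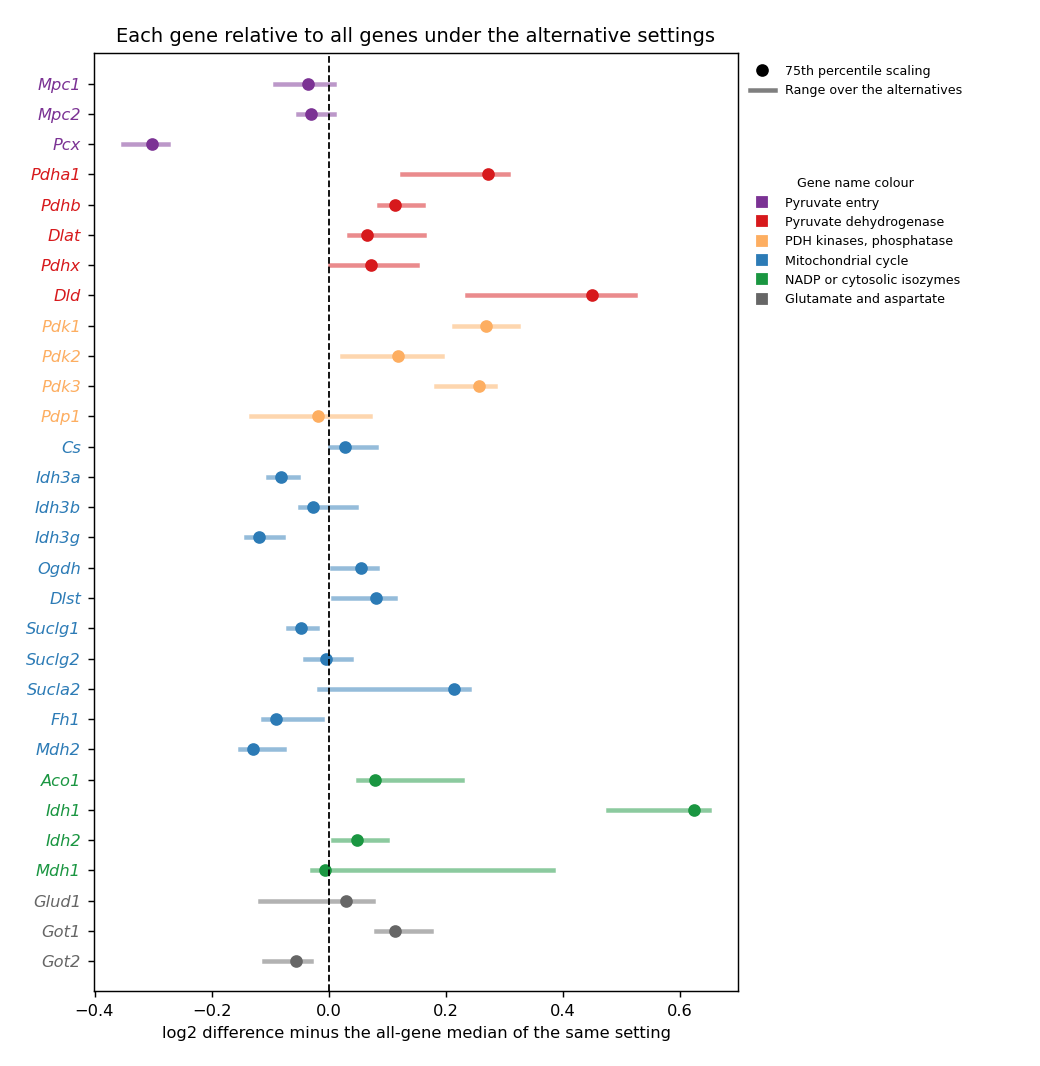
log2 difference of each of the 30 genes minus the all-gene median of the same setting, with a point for the 75th percentile scaling and a bar for the range over up to 11 alternative settings. Of the 17 genes with a point right of the dashed line 15 stay there in every setting, and of the 13 left of it 7 do. The share of all measured genes that keep their side was not counted, and median scaling, which adds a constant to every gene, could move none. The Mdh1 and Dld bars are long, and the probes of these genes disagree.

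Other genes around the cycle, listed by function, were as flat. Of 40 listed genes, 36 were measured: Pdp2 and Pck1 had no named probe, and Dhtkd1 and Pdpr were not well above background on both arrays. By their brightest probes, their median log2 difference was 0.00, 21 of 36 lay above the all-gene median, and none was 1.5-fold higher or lower. A dimmer detected probe among these genes, at a clustered spot, was lower by more than that (−0.78). The brighter probe of the same gene gave 0.25. The highest was Me1, the cytosolic malic enzyme that makes pyruvate and NADPH, at 625 and 980 (0.45). Gls2, the liver-type glutaminase, was at 331 and 511 (0.42). Pck2, mitochondrial phosphoenolpyruvate carboxykinase, was at 7122 and 10791 (0.39). Among the lowest, Lipt2, which transfers the octanoyl precursor of lipoic acid, was at 357 and 345 (−0.26), and Ogdhl at 13.6 on each array (−0.21), close to the lowest detected signal. Sdha, the flavoprotein of succinate dehydrogenase, was at 926 and 1059 (−0.01; 0.02 at its other probe). For reference, Actb was at −0.04, from a dim probe (218 and 244) at a clustered spot, and Gapdh at 0.06, with −0.04 at its other probe.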

How the data were processed

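The single-colour (Cy3) scans were quantified in Agilent Feature Extraction, for which the submitters' processing notes give version 10.5.1.1. Per the file headers, the deposited intensity columns are raw median brightness of spot and local background and a background-subtracted processed signal with its error. Deposited flag columns (other) mark outlier, saturated and well-above-background spots. The deposited value table is on a log2 scale (23296 probes, column medians 2.88 and 2.99). It equals the log2 processed signal plus a constant per array (−4.85 and −4.94) within 0.0001 for 99.7% of its probes kept after outlier removal. The origin of that centring is not stated in the labels or headers.

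Outlier flags on 1 or both arrays removed 189 of 43379 gene spots. log2 signals were reduced by each array's 75th percentile, spots of a probe were averaged, and a gene took its probe of highest mean level. Accessions were matched without versions to RefSeq (GRCm38.p6) for names alone: 25091 of 41163 probes (61.0%) matched. Genes count as measured where that probe is well above background on both arrays. With 1 array per group, no test was made and the number of arrays limits the precision. The members and lists were chosen with earlier results of these data known. All 30 members are named; of the related list, the 3 highest, the 3 lowest, any gene past 1.5-fold, Sdha and Me1, less some genes not reported here; Actb and Gapdh as reference. Promoter sequences are RefSeq's, GRCm38.p6. Steps were tested on simulated data. Alternatives were median, quantile and loess (span 0.3) scaling, normexp (offset 50), raw signal, the authors' table, other filters, other probe rules, local medians (10 rows and columns each way) and other fold limits. Leaving out clustered spots and using the dimmer probe were added after seeing the data. Python 3.11.15, numpy 2.4.6, pandas 2.3.3, statsmodels 0.14.6, matplotlib 3.10.9, R 4.3.3 and limma 3.58.1 were used.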

Additional observations from a re-analysis of the deposited data

How the results depend on the processing

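Scaling moved every difference: with each array scaled to its median, 0.12 was added, so small signs are given here against the all-gene median. The median difference of the 30 genes was 0.01 and became 0.14 with median scaling, 0.054 with quantile scaling and 0.14 in the authors' value table, and moved by less than 0.04 in the other 10 settings. That of the related list (0.00) became 0.13 with median scaling, 0.052 with quantile scaling, 0.043 with loess, 0.038 with normexp, 0.13 in the authors' table and 0.045 with local medians subtracted. By the dimmer probe, available for 9 related genes, it was −0.12, against −0.02 for all genes taken the same way. The median distance of the 30 genes from the all-gene median, 0.08, moved by less than 0.04 in all 12 alternatives. The count past 1.5-fold, 1 (Idh1), was 0 with normexp, 0 without background subtraction, 0 among the brighter genes, which leave Idh1 out, 0 at a 2-fold limit, and 3 at a limit of 0.32 in log2. The count above the all-gene median, 17 of 30, was 22 without background subtraction and 20 without the filter on dim probes. It was 19 with quantile scaling, with loess and with the median over a gene's probes, and 18 with normexp. Median scaling, the authors' table and local medians left it at 17. It was 26 of 45 with probes counted singly and 9 of 15 with the dimmer probes, where more or fewer items were counted. Of the single genes, 3 values moved by more than their spot error: Dld to 0.21 with the median over its probes, and Sucla2 to −0.04 and Mdh1 to 0.36 without clustered spots. No paired analysis was possible because the groups share only 1 replicate number, and leaving out an array leaves no comparison. Signal over background limits the dim genes: the lowest detected signal was 11.8 untreated and 7.66 with BSP-II, close to Pdp1.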
